A study of Mus musculus with 2 samples.

Results

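Cytosolic ribosomal protein genes encode the proteins that, with ribosomal RNA, build the large (60S) and small (40S) subunits of the ribosome. Every growing cell needs the proteins in matched numbers, and their messenger RNAs belong to the class that carries a run of pyrimidines at the 5′ end, through which translation answers to growth signals. Several members have a paralog, a second gene for a related protein, which in some pairs, though not in all, can take its place in the ribosome. Members were chosen by symbol, leaving out names of pseudogene form, which gave 81 of the 14959 genes in the deposited count table, 49 of the large and 32 of the small subunit.

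The genes were followed in single cells of 2 lines of the mouse melanoma B16, with 1 library per line. B16F0 is labelled the parental line and B16F10 a highly metastatic subclone. Neither line is labelled with a treatment or a genetic change. Transcripts were counted as unique molecular identifiers (UMIs) at their 3′ ends, with 2582 cells and 94268486 UMIs in B16F0 and 1574 cells and 56748682 UMIs in B16F10. With 1 library per line there is no replicate check and no test, and each 95% interval below covers counting error only. Levels are counts per 1000000 UMIs of a group of cells (CPM), and a log2 ratio compares 2 such levels. All 81 members passed the minimum of 20 CPM in every comparison.

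The median cell held 35503.5 UMIs in B16F0 and 34950.5 in B16F10, and 6 cell barcodes occurred in both libraries. Mitochondrially encoded transcripts took 5.41% and 6.78% of the UMIs. All 7 melanocyte lineage markers were present, at a summed 7852 and 7733 CPM. Of 29 markers of other cell types 7 were in the table. Egfl7, an endothelial marker, stood at 66.2 and 63.0 CPM, the 3 fibroblast markers at a summed 3.99 and 3.82 CPM, and the 2 macrophage markers at a summed 6.26 and 3.93 CPM.

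Pyrimidine runs near the annotated start were found in most of the matched members. The RefSeq start windows of the build GRCm38.p6 held 61 of the 81 members. Runs of C and T, at least 8 bases long and beginning with C on the transcribed strand, started within 50 bases of the annotated start in 51 of the 61, or 83.6%, and in 32.0% of 27025 genes. The hexamer CTTTCC stood there in 31.1% of the matched members and in 5.43% of all genes. The ETS motif CCGGAAG stood on either strand of the window of 250 bases before to 50 after the start in 41.0% of members and 9.93% of genes, and TATAAA from 100 bases before to 50 after in 9.84% and 8.08%. A match is a description of letters, not a measured site. The runs lie before or after the annotated start, and none is shown to be the first bases of the messenger RNA.

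The following stretches show the run, in capitals, for 5 members whose ratios lie at the ends of a comparison below, and for Rplp0, whose longest run is short. Each is written 5′ to 3′ on the gene's own strand. They lie at chr14:24490711-24490740 (plus strand) for Rps24, chr1:39367825-39367854 (plus) for Rpl31, chr13:90923142-90923171 (plus) for Rps23, chrX:74270836-74270865 (plus) for Rpl10, chr3:28805500-28805529 (plus) for Rpl22l1 and chr5:115559468-115559497 (plus) for Rplp0. For Rps23 and Rpl10 the run reaches the end of the window.
Rps24: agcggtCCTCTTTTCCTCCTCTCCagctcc
Rpl31: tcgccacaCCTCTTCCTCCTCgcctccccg
Rps23: tgggtccttcctgcaCCTCCTCTCTCTTTC
Rpl10: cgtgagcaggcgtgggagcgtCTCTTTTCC
Rpl22l1: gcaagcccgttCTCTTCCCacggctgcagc
Rplp0: gaccgcctggttCTCCTataaaaggcacac
The longest runs of Rps24 and Rpl31 hold 18 and 13 bases, and that of Rplp0 holds 5. Rpl22l1, which differed most between single B16F0 cells, holds a run of 8.

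Levels of the members spread over a wide range although their proteins are needed in matched numbers. UMIs mark 1 end of a molecule, so levels in CPM were compared between genes without division by length. The median member stood at 3153 CPM in B16F0 against 2938 CPM in B16F10, beside a median of 8.19 and 9.37 CPM over all genes of the table. Members filled 68 of the 100 highest places in B16F0 and 69 in B16F10. Rpl32 was highest in B16F0 with 11915 CPM and stood at 9274 CPM in B16F10. Rplp1, an acidic protein of the P-stalk that recruits translation factors, was highest in B16F10 with 9287 CPM and stood at 7663 CPM in B16F0. Its stalk partners Rplp0 and Rplp2 stood at 8148 and 2959 CPM in B16F0 and at 7282 and 3013 CPM in B16F10. The 3 stalk transcripts thus did not share a level in either line.

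At the low end, Rpl7l1, a paralog of Rpl7, stood at 72.0 and 86.5 CPM. Rpl36al followed with 361 and 399 CPM, Rpl36a with 679 and 571 CPM, Rpl27 with 783 and 792 CPM, and Rpl13a with 959 and 1008 CPM. Rpl7l1 was seen in 87.1% and 93.1% of cells, and the other 80 members in over 99% of the cells of each line. No cell type that lacks the gene was available as a background for these shares, with the median depths given above.

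**Figure D1:**
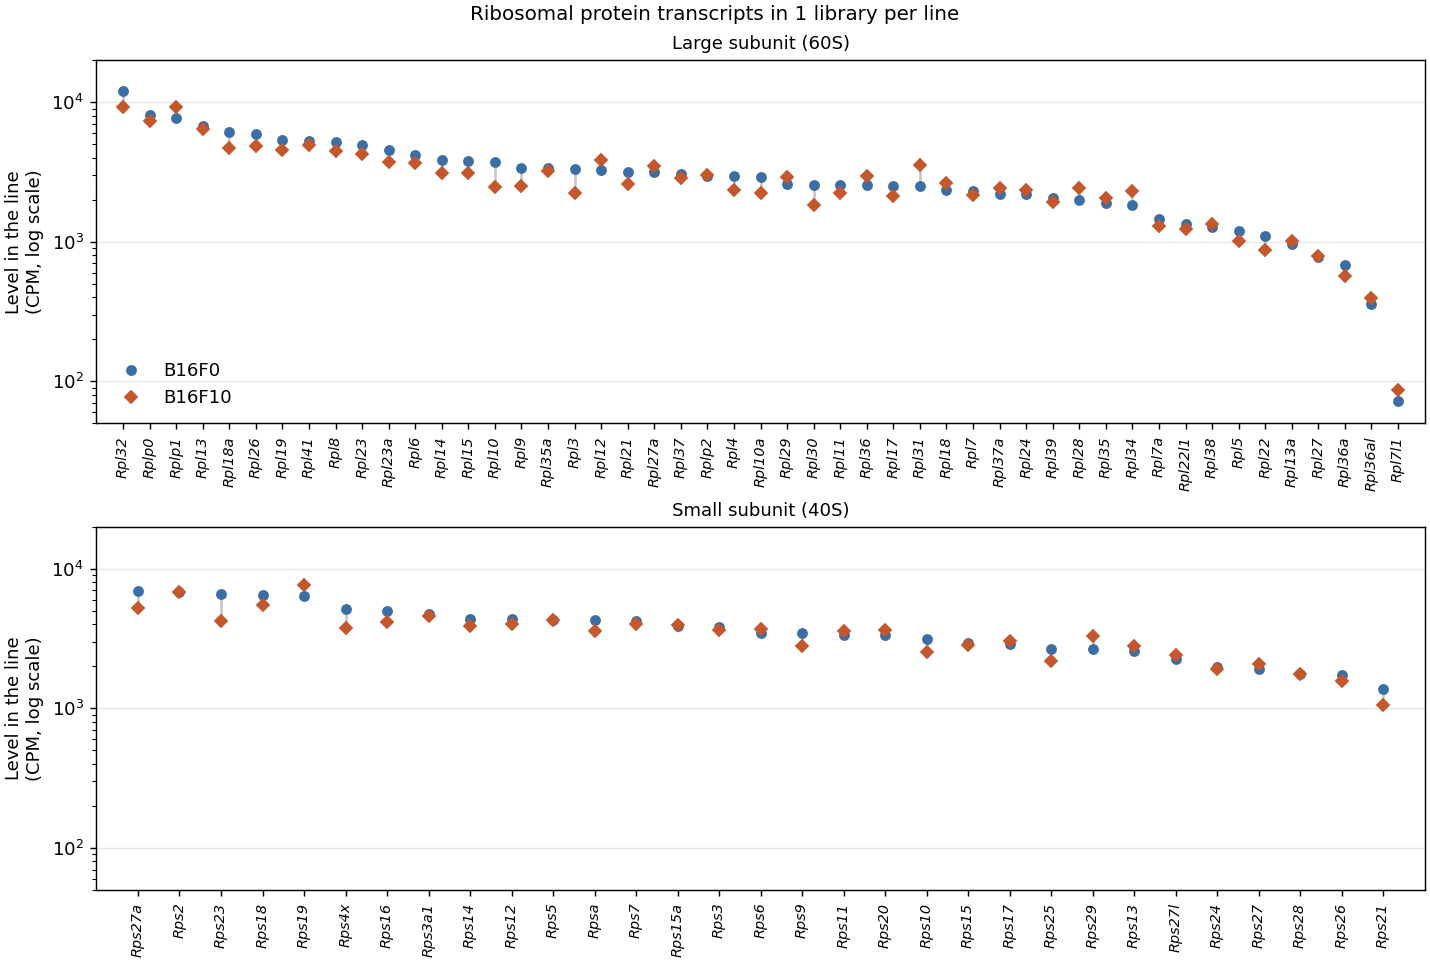
Level of 80 of the 81 members in the 2 libraries (y axis, CPM on a log scale), large subunit above and small subunit below, ordered by the level in B16F0 (circles, B16F0; diamonds, B16F10; the grey line joins them). Rpl32 tops the large subunit in B16F0 at 11915 CPM and Rpl7l1 lies lowest at 72.0 CPM, while Rps23, Rpl10 and Rpl3 lie at least 1.5-fold lower in B16F10.

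Near-identical copies can share reads with a member. In the GENCODE release M21, 77 of the 81 members have at least 1 annotated copy elsewhere with at least 95% identity over at least 90% of the coding sequence, with a median of 5 and at most 56, for Rpl21. Of the 570 copies 23 have a row in the table. Reads that fit a copy equally well can be lost or split in counting, so levels between members are uncertain to that degree, while a ratio between groups of cells compares the same sequence in both. The copy Rpl10-ps3 fell from 119 to 65.9 CPM between B16F0 and B16F10, beside the lower level of Rpl10 itself, and Rpl9-ps6 from 66.0 to 41.9 CPM beside Rpl9.

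The line comparison asks whether the metastatic subclone differs from the parental line. Members took 28.4% of the UMIs in B16F0 (interval 28.4 to 28.4) and 26.2% in B16F10 (interval 26.2 to 26.2), a log2 ratio of -0.11. The median member ratio was -0.09, beside 0.12 over all 5296 genes past the minimum, and 64 of 81 members lay below that median of all genes. At least 1.5-fold lower in B16F10 were 3 members, where 6.12% of all genes were, and 0 members were at least 1.5-fold higher, where 10.6% of all genes were. With TMM or median-of-ratios factors the split of called genes turned from 560 higher and 324 lower to 368 and 465 or 350 and 470, since either set of factors shifts all ratios by -0.10. With them 3 and 4 members were called.

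The 3 lower members were Rps23, Rpl10 and Rpl3. Rps23, a protein of the decoding centre, stood at 6614 CPM in B16F0 against 4239 CPM in B16F10, a log2 ratio of -0.64 (interval -0.65 to -0.64). Rpl10, which joins the large subunit late in its assembly, stood at 3733 and 2453 CPM, a ratio of -0.61 (interval -0.61 to -0.60). Rpl3, which reaches the peptidyl transferase centre, stood at 3329 and 2216 CPM, a ratio of -0.59 (interval -0.60 to -0.58). Short of the limit were Rpl30 at -0.49, the X-linked Rps4x at -0.45 and Rpl9 at -0.44. Which members were called depended on the cells that entered. Among cells with at most 8% mitochondrial UMIs 1 member was called, Rps23 at -0.63, where 5.96% of all genes were lower and 9.62% higher. Among cycling cells 1 was called, Rps23 at -0.65, where 5.99% of all genes were lower and 8.07% higher. Among non-cycling cells 0 were called, with Rps23 at -0.54, where 7.32% were lower and 10.2% higher.

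A finer limit, a log2 difference of 0.32, was added after the values were seen. At that limit 13 members were lower in B16F10, where 15.4% of all genes were, and 3 were higher, where 28.5% were. For cycling over non-cycling cells 2 members were lower in B16F0 and 0 higher, where 5.94% and 19.7% of all genes were. In B16F10 13 were lower and 0 higher, where 10.7% and 28.1% were. For the Kdm5b classes described below 0 members passed it, where 6.78% of genes were higher and 2.69% lower in B16F0, and 7.17% and 4.29% in B16F10. The genes behind these shares were not matched to the members by level, and counting error is larger at lower levels. Between the B16F0 clusters described below, 3 members were higher and 2 lower for C3 over C1, where 14.8% and 9.12% of genes were. For C4 over C2 these were 4 and 3 members, where 14.4% and 7.75% of genes were.

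Rpl31, a protein at the rim of the exit tunnel, was the highest member and the only one at least 1.5-fold away from the members' median. It stood at 2514 CPM in B16F0 against 3545 CPM in B16F10, a log2 ratio of 0.50 (interval 0.49 to 0.50). Rpl34 and Rps29 followed, each at 0.32, with Rpl28 at 0.28, Rplp1 at 0.28, Rps19 at 0.27 and Rpl7l1 at 0.27. For the 5S particle, whose proteins Rpl5 and Rpl11 can also bind the p53 ligase Mdm2, the ratios were -0.24 and -0.21. The stalk gave -0.16 for Rplp0, 0.28 for Rplp1 and 0.03 for Rplp2. Ratios of members within 1 complex therefore differed in sign. Across the 81 members the ratio was lower at greater coding length (r = -0.30), while over the other genes it was higher (r = 0.23), a description across genes of the same 2 libraries.

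Line ratios of members were also set beside those of the genes around them. Each member was set beside the median line ratio of the other genes within 5 Mb on its chromosome, past the same minimum. Over the 81 members the correlation with that median was 0.56 (Spearman 0.60), as a description across genes of the same libraries, and 72 of 81 members lay below their neighbours. That count was not made for other genes. Rpl31 (chromosome 1, 39367842 to 39371911, plus strand, GRCm38) had a neighbour median of 0.53 beside its own 0.50. Rps29 on chromosome 12 had 0.32 beside its own 0.32. Rps23 on chromosome 13 lay at -0.64, below the -0.27 of its 12 neighbours. The 178 other genes of that chromosome had a median of -0.28.

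Other members also parted from their neighbours. Rpl3 on chromosome 15 lay at -0.59 where its 81 neighbours had a median of 0.02. Rpl10 on the X chromosome lay at -0.61 against -0.03, and all 4 X-linked members were lower in B16F10, with a median of -0.35 beside -0.01 for the other genes of that chromosome. Of these members Rpl39 stayed near its neighbours, at -0.11 against -0.10. Rps9 and Rpl28 share their neighbours on chromosome 7, with a median of 0.45, yet Rps9 stood at -0.29 and Rpl28 at 0.28. Rplp1 at 0.28 had neighbours at -0.08. What part the position has in these ratios was not tested.

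**Figure D2:**
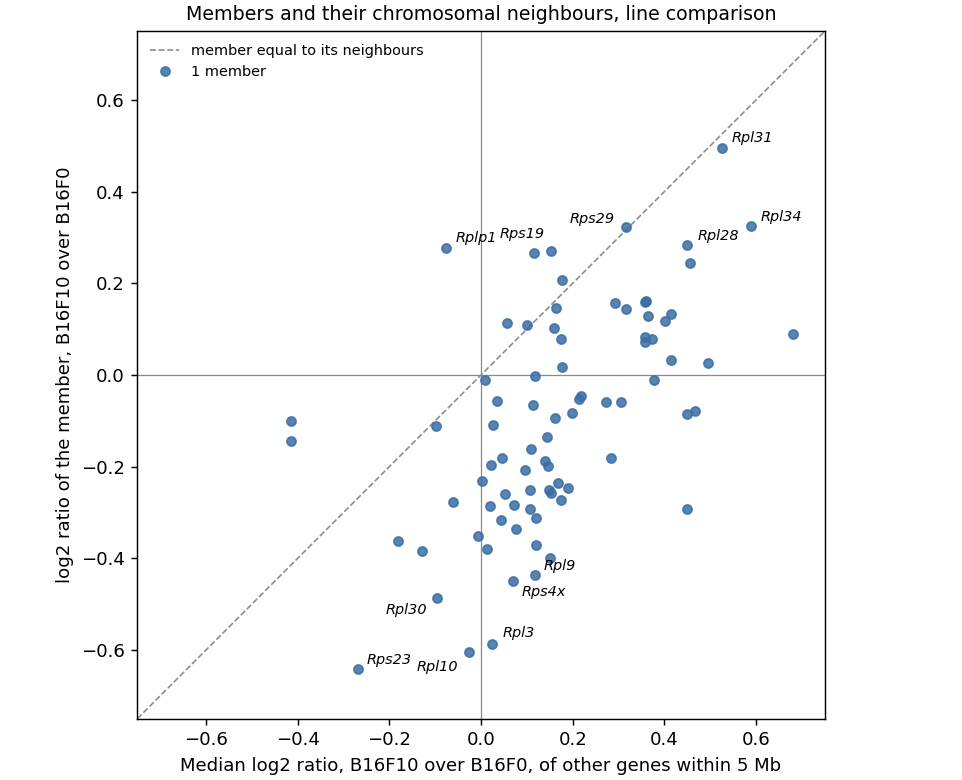
Each point is 1 of the 81 members: its log2 ratio B16F10 over B16F0 (y axis) against the median ratio of the other genes within 5 Mb (x axis), with the dashed line where both are equal. Rpl31 and Rps29 lie near the line, Rpl3 and Rpl10 lie far below it at -0.59 and -0.61, and Rplp1 lies above it.

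The libraries differed in composition as well as in the family's share. What part composition has in the line ratio was not tested. Cells in the authors' cycling class made up 54.6% of B16F0 and 78.1% of B16F10, and such cells held a lower share of ribosomal protein transcripts in both lines. Within non-cycling cells the shares were 29.7% in B16F0 and 29.4% in B16F10, a log2 ratio of -0.02, and within cycling cells 27.3% and 25.4%, a ratio of -0.10. The clusters C3 and C4 of the authors' table each held at least 50 cells of both lines. Within C3 the share was 29.3% in B16F0 and 30.1% in B16F10, and within C4 26.4% and 26.7%, log2 ratios of 0.038 and 0.016. With TMM factors these ratios turned to -0.011 and -0.12, and with median-of-ratios factors to -0.029 and -0.12. The median member ratio within C4 was -0.03, with 44 of 81 members below 0, beside 0.05 over all genes. Line ratios of single members in cycling and in non-cycling cells correlated at 0.93, and their ratios in C3 and C4 at 0.88, over 81 members of the same 2 libraries.

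Within C3 and C4 Rps29 had the highest line ratio. In C3 Rps29, a zinc-binding protein of the small subunit's head, stood at 2304 CPM in B16F0 against 3843 CPM in B16F10, a ratio of 0.74, the only member called there, where 8.39% of all genes were higher and 9.83% lower. In C4 Rps29 stood at 2249 and 3959 CPM, a ratio of 0.82, and Rplp1 at 6908 and 12028 CPM, a ratio of 0.80. Rpl10 was the lower call of C4, at 3256 and 2091 CPM and a ratio of -0.64. In that cluster 17.4% of all genes were higher and 15.1% lower. C4 cells of B16F10 also had fewer UMIs than those of B16F0, a median of 29693 against 38645, and a larger median mitochondrial share, 8.58% against 4.87%. The part of depth and mitochondrial share in these ratios was not tested.

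Cycling cells gave their UMIs to members less than non-cycling cells in both lines. In B16F0 the share was 27.3% in 1411 cycling cells and 29.7% in 1171 non-cycling cells, a log2 ratio of -0.12 (interval -0.12 to -0.12). In B16F10 it was 25.4% in 1230 cells and 29.4% in 344 cells, a ratio of -0.21 (interval -0.21 to -0.21). The median member ratio was -0.14 in B16F0 and -0.22 in B16F10, where all genes had medians of 0.06 and 0.11. Below 0 were 72 of 81 members in B16F0 and 77 of 81 in B16F10. In each line 80 of 81 members lay below the median of all genes. Called at 1.5-fold were 0 members in B16F0, where 1.03% of all genes were lower and 9.35% higher, and 1 lower member in B16F10, where 3.43% were lower and 13.0% higher. CPM are shares of the total, and cycling cells held more UMIs, with a median of 37356 against 33745 in B16F0 and 36316 against 30188.5 in B16F10. The summed members came to 10284 UMIs per cycling and 10460 per non-cycling B16F0 cell, and to 9426 and 9544 in B16F10. Per cell, the members' UMIs thus differed by little between the classes.

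Rpl3 and Rpl10 were lowest in cycling cells of both lines. Rpl3 stood at 2979 CPM in cycling and 3781 CPM in non-cycling B16F0 cells, a ratio of -0.34, and at 2015 and 3038 CPM in B16F10, a ratio of -0.59, the 1 call. As a mean of per-cell CPM this ratio was -0.56 and once the top 5% of cells by UMIs were dropped -0.58, short of the limit in both. Rpl10 gave -0.33 (3356 and 4218 CPM) and -0.49 (2273 and 3192 CPM). Rps4x was the next member outside the 5 lowest of each line, at -0.25 and -0.39. Rpl7 and Rpl37a were among the 5 lowest in B16F0, at -0.31 and -0.27, and Rpl22l1, Rpl10a and Rps14 among those in B16F10, at -0.43, -0.42 and -0.41.

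Rps2 and Rps12 were the only members higher in cycling cells of both lines, and with TMM factors both lay below 0 in B16F10, at -0.0021 and -0.015. With mitochondrial and ribosomal genes left out of the total they were at -0.094 and -0.11 in B16F10, and at 0.0090 and 0.00048 in B16F0. Rps2, which lines the entry of the messenger RNA channel, stood at 6916 and 6616 CPM in B16F0 and at 6791 and 6716 CPM in B16F10, ratios of 0.06 and 0.02. Rps12 gave 0.06 in B16F0, and in B16F10 its interval held 0. Rpl12, at the base of the stalk, was at -0.01 in B16F0 and 0.06 in B16F10, and in B16F10 at -0.051 with mitochondrial and ribosomal genes left out of the total. Rpl7l1 gave -0.03 in B16F0 and 0.22 in B16F10 (interval 0.11 to 0.33), at 76.4 CPM in non-cycling and 89.0 CPM in cycling cells. Over the 81 members the ratios of the 2 lines correlated at 0.70 (Spearman 0.62), across genes that share their library totals.

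**Figure D3:**
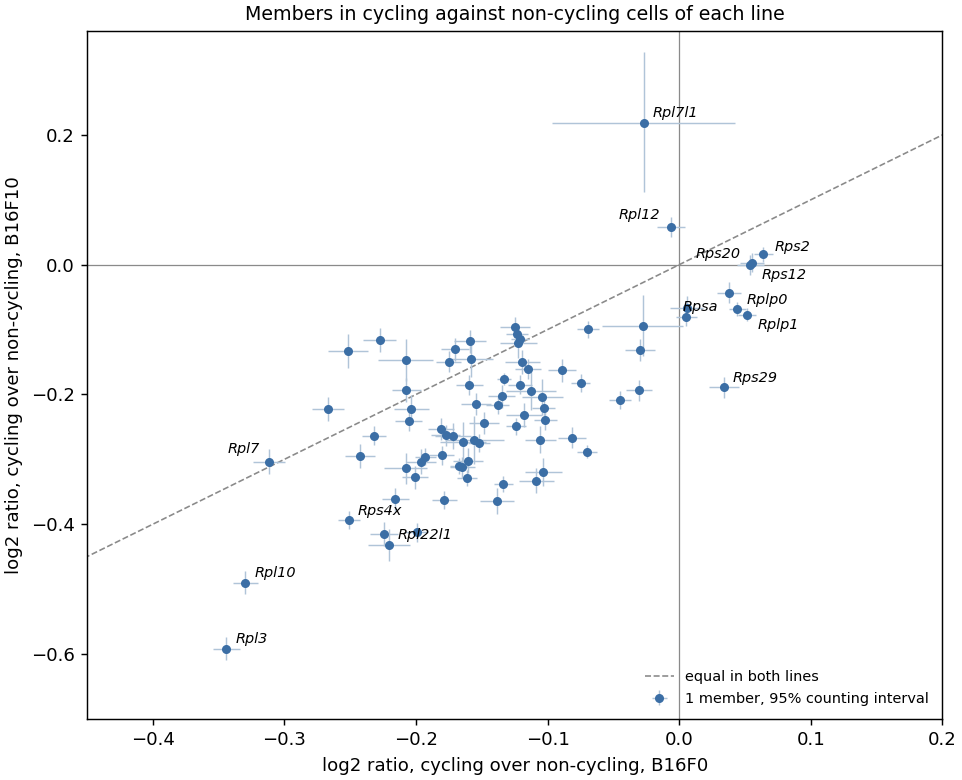
Log2 ratio of cycling over non-cycling cells for each of the 81 members in B16F0 (x axis) and B16F10 (y axis), with 95% counting intervals, and the dashed line where both lines are equal. Rpl3 and Rpl10 lie lowest in both lines, and only Rps2 and Rps12 lie above 0 in both, which TMM factors turn in B16F10.

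Genes that make or control ribosomes were counted beside the members. Other messenger RNAs of the 5′ pyrimidine class lay below the median of all genes, as the members did. Of 22 past the minimum 6 were called lower in B16F10 and 0 higher, where 6.12% and 10.6% of all genes were, with a median line ratio of -0.32. Vim, which encodes vimentin, fell from 1126 to 619 CPM, Btf3 from 1338 to 768 CPM and Eif3h from 646 to 380 CPM. In cycling cells their medians were -0.12 and -0.22, with 1 call, the elongation factor gene Eef2 in B16F10, lower at 803 than at 1220 CPM, where 3.43% of all genes were lower. Nucleolar assembly factors had medians above 0 in cycling cells, where the members had medians below 0. In cycling B16F10 cells 10 of 53 were called higher and 0 lower, where 13.0% and 3.43% of all genes were, with a median of 0.35 beside 0.11 over all genes, among them Nop58 at 225 against 123 CPM and Dkc1 at 68.3 against 37.0 CPM. In B16F0 1 of 51 was called higher, Rrp1b, where 9.35% of all genes were, with a median of 0.08 beside 0.06 over all genes. Of 11 import factors and chaperones of ribosomal proteins 4 were higher in cycling B16F10 cells and 2 in B16F0, where 13.0% and 9.35% of all genes were, among them Ipo5 in B16F10 and Kpnb1 in B16F0. Of 10 genes of RNA polymerase I transcription Ubtf alone was called higher in each line, against the same shares of all genes. The difference between the lines was not tested for these lists.

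Kdm5b, a histone demethylase, is known for marking slowly dividing melanoma cells. The authors' Kdm5b classes were compared within non-cycling cells, since only 20 cycling cells of B16F0 and 44 of B16F10 were Kdm5b high. In B16F0 the members took 29.1% of the UMIs of 91 high cells and 29.8% of 1080 low cells, a log2 ratio of -0.04. In B16F10 they took 29.1% of 77 high cells and 29.5% of 267 low cells, a ratio of -0.02. Among cells between the 25th and 75th percentile of UMIs the ratios had the other sign, 0.010 and 0.0071. Called were 0 members in either line, where 0.62% and 1.1% of all genes were higher and 0.372% and 0.492% lower. All genes were not matched to the members by level. With TMM factors the split of called genes in B16F0 turned from 30 higher and 18 lower to 15 and 28. The median high cell held 30563 UMIs and the median low cell 33914.5 in B16F0, and 30590 and 30183 in B16F10. Rpl22l1 was highest in B16F10 at 0.17 (1693 against 1506 CPM) and stood at 0.11 in B16F0 (1567 against 1455 CPM). Rps24 led in B16F0 at 0.16, and Rpl36a was lowest in both lines, at -0.18 each. With cycling cells included the family ratios were 0.03 and 0.08, and the Kdm5b classes then also differed in their share of cycling cells, 18.0% against 56.3% in B16F0 and 36.4% against 81.6% in B16F10.

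Across clusters the family's share had a narrower range than the levels of some single members. A sum over 81 genes evens out its members, so this contrast is a description only. The authors' table assigns cells to clusters C1 to C5; the labels and files used here do not say how they were built, and since members may have entered the clustering, values by cluster are a description. Line and cluster gave 7 groups of at least 50 cells. Members took between 25.2% of UMIs (C5 of B16F10) and 30.1% (C3 of B16F10). Of single members, 25 of 81 had a highest group at least 1.5 times the lowest, where 75.6% of all 5980 genes past the minimum did. The median of highest over lowest was 1.40 for members and 1.79 for the other genes, which were not matched to them by level. Clusters of mostly non-cycling cells, C1 and C3, held the highest group of 70 of the 81 members. The same count was not made over all genes, so it is not shown to be particular to members.

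Rps24, a small subunit protein whose gene is mutated in Diamond-Blackfan anaemia, separated the B16F0 clusters into pairs. Its level was 1514 CPM in C1 and 1390 CPM in C2, against 2755 CPM in C3 and 2480 CPM in C4. In B16F10 it was 2190 CPM in C3, 2047 CPM in C4 and 1805 CPM in C5, between the B16F0 values. C1 and C3 hold mainly non-cycling cells and C2 and C4 mainly cycling cells, so C3 was compared with C1 and C4 with C2, a choice made after these values were seen. The log2 ratios of Rps24 were 0.86 (interval 0.85 to 0.88) and 0.84 (interval 0.82 to 0.86). It was the only member called in either comparison, where 5.42% and 5.0% of all genes were higher and 2.56% and 1.93% lower. In cells thinned to 23173 UMIs, the 10th to 90th percentile of Rps24 was 25 to 46 UMIs in C1 and 45 to 84 in C3, with medians of 34 and 63.

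Genes around Rps24 differed between these clusters by as much. Rps24 lies on chromosome 14 (24487125 to 24496959, plus strand, GRCm38). The median ratio of its 17 neighbours within 5 Mb was 0.82 for C3 over C1, and of 18 neighbours 0.81 for C4 over C2, close to its own values. Over the whole of chromosome 14 the medians were 0.70 (142 other genes) and 0.74 (155 other genes). Chromosome 1 followed at 0.35 and 0.31, and chromosome 3 lay at -0.02 and -0.01. The other member on chromosome 14, Rpl15, stood at 0.30 and 0.33 where its neighbours had 0.62 and 0.63. Relative to C1 of B16F0, 91 other chromosome 14 genes past the minimum in all 7 groups had medians of 0.01 in C2, 0.62 in C3 and 0.62 in C4, and of 0.25, 0.23 and 0.35 in C3, C4 and C5 of B16F10. Between all cells of the lines Rps24 differed by -0.06, with 1976 CPM in B16F0 against 1900 CPM in B16F10.

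Not every member followed its chromosome. Rpl22l1 on chromosome 3 stood at 1205 and 1077 CPM in C1 and C2 and at 1718 and 1446 CPM in C3 and C4, ratios of 0.51 and 0.43, where its neighbours had 0.07 and 0.01. Single cells overlapped widely, with a 10th to 90th percentile of 12 to 47 thinned UMIs of Rpl22l1 in C1 and 17.2 to 63 in C3. Rpl7 on chromosome 1 did lie near its chromosome's medians of 0.35 and 0.31, at 0.36 and 0.34, beside neighbours at 0.49 and 0.45. Rps29, Rps16 and Rps28 were the 3 lowest members in both comparisons, with Rps29 at -0.33 and -0.39 and Rps16 at -0.33 and -0.36, beside neighbours at -0.01 and -0.00 for Rps29 and at 0.09 and 0.12 for Rps16. Over the 81 members the correlation with the neighbours' median was 0.73 (Spearman 0.56) for C3 over C1 and 0.71 (Spearman 0.55) for C4 over C2.

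**Figure D4:**
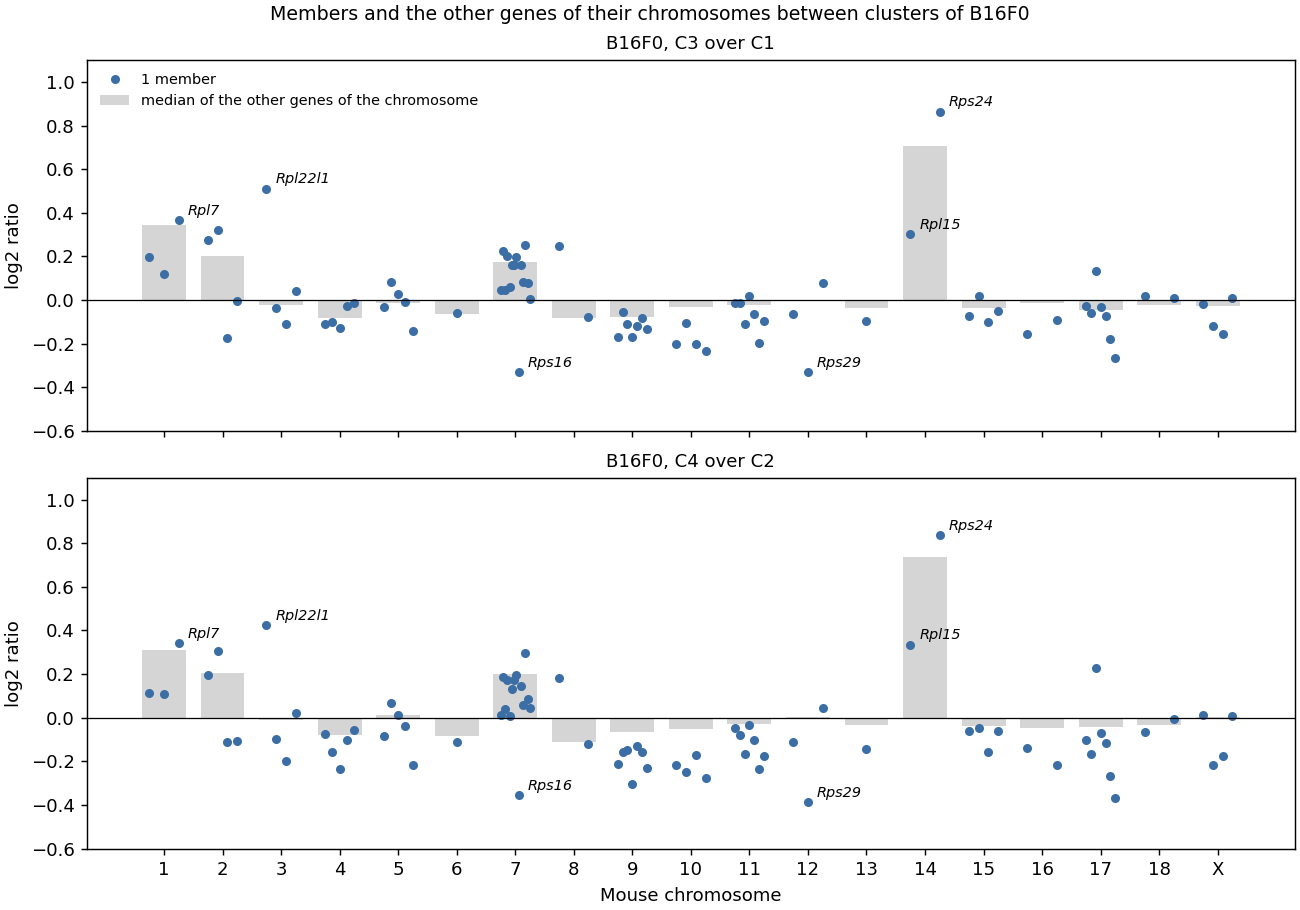
Log2 ratios between clusters of B16F0, C3 over C1 above and C4 over C2 below, for each member (points) on its chromosome (x axis), with the median of the chromosome's other genes past the minimum as a grey bar. Rps24 at 0.86 and 0.84 stands on chromosome 14, whose other genes have medians of 0.70 and 0.74, while Rpl22l1 on chromosome 3 stands apart from a bar near 0.

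Rpl10 and Rpl3 had another pattern over the groups. Rpl10 was highest in C1 and C3 of B16F0, at 4156 and 4104 CPM, and lowest in C4 and C5 of B16F10, at 2091 and 2310 CPM. Rpl3 gave 3778 and 3587 CPM in the first pair and 2002 and 2025 CPM in the second. Rps29 was highest in C4 of B16F10, at 3959 CPM, and lowest in C4 of B16F0. Over the 7 groups Rps4x had the pattern most like that of Rpl10, with a correlation of log2 CPM above 0.99, followed by Vamp8 and Eef1g, and the genes most like Rpl3 were Vamp8, Rps10 and Use1, each above 0.99. With 7 groups and 2590 genes compared, such values are a description.

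**Figure D5:**
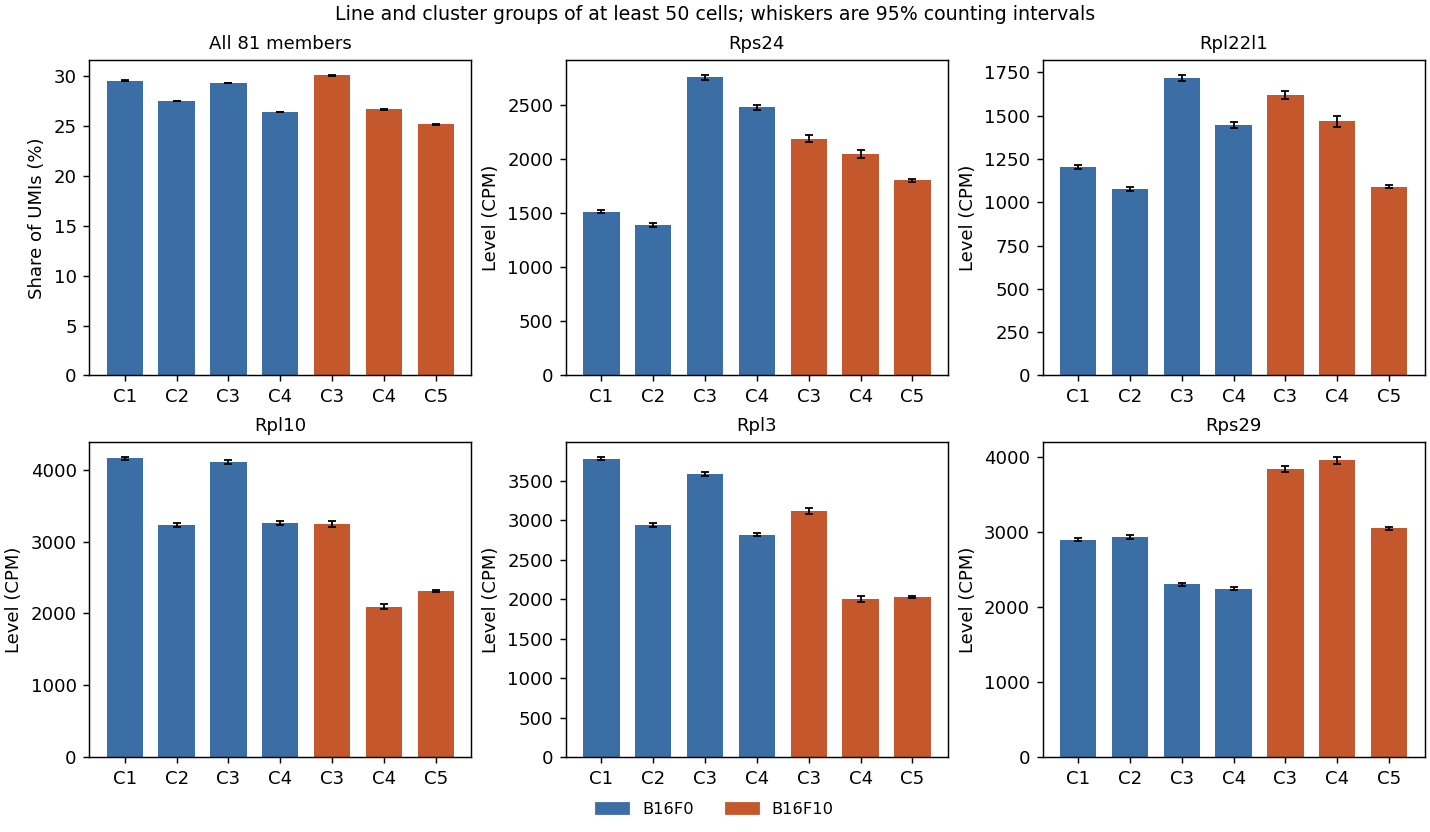
Share of UMIs of all 81 members, and level in CPM of Rps24, Rpl22l1, Rpl10, Rpl3 and Rps29, in the 7 line and cluster groups (bars; blue, B16F0; orange, B16F10; whiskers, 95% counting intervals). The share of the whole family lies between 25.2% and 30.1%. In B16F0 the levels of Rps24 and Rpl22l1 are lower in C1 and C2 than in C3 and C4. Rpl10 and Rpl3 are lowest in C4 and C5 of B16F10.

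Paralog pairs were counted as separate genes. Rpl22 and Rpl22l1 share 70.2% of 366 aligned coding bases, and their longest identical stretch has 26 bases. The stretches below are coding bases 175 to 234 of Rpl22 and 157 to 216 of Rpl22l1 from the GENCODE transcripts, and for Rps27 and Rps27l the first 60 coding bases. Capitals mark the bases at which the partners differ, 24 in the first pair and 18 in the second.
Rpl22: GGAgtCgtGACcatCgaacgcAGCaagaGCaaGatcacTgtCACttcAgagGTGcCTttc
Rpl22l1: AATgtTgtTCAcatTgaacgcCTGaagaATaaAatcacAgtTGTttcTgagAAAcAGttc
Rps27: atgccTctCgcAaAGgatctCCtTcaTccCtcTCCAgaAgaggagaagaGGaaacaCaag
Rps27l: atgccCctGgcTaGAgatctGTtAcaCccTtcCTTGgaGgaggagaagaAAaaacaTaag
Rpl22l1 held 54.9% (interval 54.7 to 55.1) of the pair's UMIs in B16F0 and 58.5% (interval 58.3 to 58.8) in B16F10. In B16F0 its share was 50.1% in C1 and 49.9% in C2, against 60.5% in C3 and 59.8% in C4. In B16F10 it was 61.4% in C3, 63.1% in C4 and 56.8% in C5. Rpl22 itself moved little between the B16F0 clusters, from 1203 and 1083 CPM in C1 and C2 to 1123 and 972 CPM in C3 and C4.

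Shares in the other pairs differed by class or by line. Rps27l, which is known as a p53 target, held 54.0% and 53.9% of its pair in the 2 lines, and 52.9% in non-cycling against 54.9% in cycling B16F0 cells and 50.3% against 54.9% in B16F10. Rpl36al held 34.7% of its pair in B16F0 and 41.1% in B16F10, with Rpl36a at 679 and 571 CPM. The pair's coding sequences share 87.7% of bases, and the longest identical stretch of the transcripts has 24 bases. Whether reads were split between them was not tested. Rpl7l1 held 3.04% and 3.85% of its pair. Rpl3l, Rpl39l, Rpl10l and Rps4l were not analysed here.

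From cell to cell most members varied less than the median of the other genes, which were not matched to them by level. Cells were thinned to 23173 UMIs, which left out 388 cells of B16F0 and 158 of B16F10, and the variance beyond counting was taken relative to the squared mean. Its median was 0.0439 over members and 0.108 over 2762 other genes in B16F0, and 0.0568 and 0.119 in B16F10, the other genes having a mean of at least 1 thinned UMI. Rpl8 was steadiest in B16F0 at 0.0273. Rpl22l1 varied most in B16F0 at 0.228, followed by Rpl7l1 at 0.153 and Rps24 at 0.139. In B16F10 Rpl3 led at 0.192, then Rpl22l1 at 0.162 and Rpl10 at 0.137. Each member was also correlated across cells with the sum of the other members of its subunit, as a description: the median was 0.58 in both lines. Rps24 gave 0.15 in B16F0, where the cells pool the clusters between which its level differed. In B16F10 it gave 0.51, with a variance beyond counting of 0.0386. Rps27l and Rpl36al were low in B16F10, at 0.09 and 0.13. Rpl7l1 gave -0.22 in B16F0 and -0.14 in B16F10, at under 3 thinned UMIs per cell on average.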

How the data were processed

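Cells of B16F0 and B16F10, 1 library each, were profiled with the 10x Genomics 3′ kit version 2, per the labels' protocols. The submitters' processing notes name Cell Ranger 3.0.0, Seurat 3.0 and mm10, with no role given. The deposited values used were raw UMI counts per gene and cell, with the authors' annotation of line, cluster, cell-cycle class and Kdm5b class. A second pair of files and the natural-log matrices were not used. All 4156 deposited cells entered, with 3011 to 6996 genes and at most 19.9% mitochondrial UMIs, and no doublet caller was run.

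Counts were summed over the cells of a class and scaled to CPM. Ratios have exact conditional binomial intervals, shares Clopper-Pearson and levels Poisson intervals, at 95%. A call is a 1.5-fold difference at 20 CPM or more in the higher group, in place of a test. Named members are the 5 highest and 5 lowest of a comparison, members 1.5-fold from the members' median, the 5 most and least abundant, paralog pairs, the stalk and the 5S particle. Gene positions came from GENCODE M21 for 14751 symbols (98.6%). Scaling factors came from edgeR 4.0.16 and DESeq2 1.42.0 in R 4.3.3. All else was computed in Python 3.11.15 with pandas 2.3.3, scipy 1.17.1, numpy 2.4.6, Biopython 1.88 and matplotlib 3.10.9, and ratios and intervals were tested on simulated data. Alternatives changed the total, the scaling factors, the cells, the minimum and the fold. Members and lists were chosen with earlier results of these data known. The values of 1 member are not reported here by name, though it is counted in all totals.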

Additional observations from a re-analysis of the deposited data

Results flagged for a closer look

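Some members had ratios of opposite sign in the lines, each with a counting interval off 0. The difference between the lines was not tested, and with 1 library per line it cannot be told apart from a difference between libraries. For cycling over non-cycling cells, Rplp0 of the stalk had a log2 ratio of 0.044 in B16F0 and -0.069 in B16F10, and Rplp1 had 0.051 and -0.077. Rps29 had 0.034 and -0.19, and Rpsa, whose protein is the laminin receptor precursor, 0.038 and -0.043. With mitochondrial and ribosomal genes left out of the total the B16F0 values were -0.011, -0.0036, -0.021 and -0.017 in that order, so the signs no longer differed.

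For Kdm5b high over low among non-cycling cells, Rpl12 had 0.075 in B16F0 and -0.074 in B16F10, and Rpl13 had 0.027 and -0.063. The opposite signs were seen for Rpl3 with -0.071 and 0.047, and for Rpl4 with -0.071 and 0.054. Rps25 had -0.094 and 0.070, Rps3a1 -0.052 and 0.073, and Rps6, the substrate of S6 kinase, -0.045 and 0.053. With TMM factors Rpl13 had -0.046 in B16F0, the sign it has in B16F10, and Rpl12 had 0.0031. Between the 25th and 75th percentile of UMIs, Rpl4, Rps3a1 and Rps6 had 0.037, 0.029 and 0.041 in B16F0 and Rpl13 had 0.025 in B16F10, so these signs no longer differed either. With cycling cells included, Rpl3, Rpl4, Rps25, Rps3a1 and Rps6 were above 0 in both lines.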

How the results depend on the processing

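No paired analysis was possible because each line has 1 library. Of 120 alternatives for 15 summary results 51 moved the value beyond its counting interval or the count by over 1.5 times, as did 401 of 781 for single members and pairs. The family's line ratio was -0.13 with mitochondrial and ribosomal genes left out of the total, -0.21 with TMM factors, -0.22 with median-of-ratios factors, -0.12 once the top 5% of cells by UMIs were dropped, -0.12 between the 25th and 75th percentile of UMIs, -0.11 at up to 8% mitochondrial UMIs, -0.10 in cycling and -0.016 in non-cycling cells, 0.038 in C3 and 0.016 in C4. Its count of 3 became 1 at up to 8% mitochondrial UMIs, in cycling cells and in C3, 0 in non-cycling cells and 16 at a log2 limit of 0.32 (the finer limit). The B16F0 cycling ratio was -0.18, -0.14 and -0.15 under the same total and factors, and -0.12 as a mean per cell, without top cells, between percentiles and at low mitochondrial share, with 2 calls at the finer limit. The B16F10 cycling ratio was -0.32, -0.23 and -0.22, then -0.20, -0.21, -0.22 and -0.23, and its 1 call became 2 with the other total, 0 as a mean per cell, 0 without top cells and 13 at the finer limit. The Kdm5b ratio in B16F0 was -0.061, -0.11 and -0.10, then -0.030 as a mean per cell, -0.014 without top cells, 0.010 between percentiles, and 0.027 with cycling cells. In B16F10 it was -0.036, -0.044 and -0.042, then -0.036 without top cells, 0.0071 between percentiles, -0.0097 at low mitochondrial share and 0.084 with cycling cells. At the finer limit 5 members were called for C3 over C1 and 7 for C4 over C2, and the range of the family's share became 5.14 points between percentiles, against 4.92. With TMM factors the Kdm5b split of called genes in B16F0 turned from 62.5% to 34.9% higher. The cause was not tested. The settings C3, C4, the finer limit and Kdm5b with cycling cells were chosen after seeing the data. Depth limits Rpl7l1 most, at under 100 CPM.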
